A study of Mus musculus with 13 samples.

Results

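The 9 genes described here are transcripts by which goblet cells, the mucus-secreting cells of the intestinal lining, are recognised: Muc2, Tff3, Fcgbp, Zg16, Clca1, Agr2, Spdef, Atoh1 and Spink4. They were taken by symbol from a table of read counts for 21868 genes, with no threshold on their values. Messenger RNA was counted in mouse jejunal epithelial cells sorted as EpCAM-positive and negative for the leukocyte markers CD45, CD11b, CD3 and B220. The 13 libraries formed 5 groups. BSF, the breakfast-skipping pattern, had food from ZT16 to ZT24 (ZT counts hours from lights on) for 2 weeks and was represented by 2 libraries. BSF_C, with 3 libraries, is called the breakfast-skipping pattern combined with control in the labels, which say no more about it. LSF, lunch skipping, had food from ZT12 to ZT16 and again from ZT20 to ZT24 (3 libraries), and DSF, dinner skipping, had food from ZT12 to ZT20 (2 libraries), both for 2 weeks. The control group, con, had 3 libraries, and the other groups are called feeding groups here. The feeding times of con and BSF_C, the hour of sampling, and the strain, age and sex of the mice are not given in the sources used here. The labels call the libraries of a group biological replicates without saying whether each came from its own mouse.

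Goblet cells arise from crypt progenitors that escape Notch signalling and switch on Atoh1, the transcription factor that commits a cell to the secretory lineage, and they then mature under Spdef, an ETS-family factor. The mature cell stores the gel-forming mucin Muc2, folded with the help of the endoplasmic reticulum protein Agr2, and secretes it with Fcgbp, Clca1, Zg16, Tff3 and Spink4 to build the mucus that separates microbes from the epithelium. Atoh1 is shared with the Paneth and enteroendocrine lineages, so it marks more than goblet cells.

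RefSeq promoter sequences (GRCm38.p6) were at hand for 5 of the 9 genes, Muc2, Fcgbp, Agr2, Spdef and Atoh1. The 250 bases before the RefSeq transcription start are printed for 2 genes that were higher in every feeding group than in con (Muc2 and Agr2) and 2 that were lower (Fcgbp and Atoh1), so that their upstream sequences can be set side by side. Capitals mark the E-box CAGNTG on either strand, the class of site that Atoh1 and related factors bind. All 4 lie on the plus strand, at chr7:141690090-141690339 (Muc2), chr12:35992675-35992924 (Agr2), chr7:28070986-28071235 (Fcgbp) and chr6:64728875-64729124 (Atoh1).
Muc2: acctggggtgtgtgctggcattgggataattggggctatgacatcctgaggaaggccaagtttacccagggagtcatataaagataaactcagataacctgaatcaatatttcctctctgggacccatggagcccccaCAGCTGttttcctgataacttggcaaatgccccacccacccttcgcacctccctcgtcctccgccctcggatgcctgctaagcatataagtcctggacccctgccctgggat
Agr2: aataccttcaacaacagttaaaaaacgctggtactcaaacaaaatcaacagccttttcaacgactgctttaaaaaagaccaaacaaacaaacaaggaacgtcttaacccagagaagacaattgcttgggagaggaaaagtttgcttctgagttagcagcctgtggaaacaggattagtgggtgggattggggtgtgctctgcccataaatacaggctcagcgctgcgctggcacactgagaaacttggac
Fcgbp: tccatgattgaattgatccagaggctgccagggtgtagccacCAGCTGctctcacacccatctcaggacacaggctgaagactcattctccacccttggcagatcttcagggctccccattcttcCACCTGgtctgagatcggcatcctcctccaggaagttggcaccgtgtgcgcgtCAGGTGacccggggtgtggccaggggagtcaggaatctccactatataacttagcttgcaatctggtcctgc
Atoh1: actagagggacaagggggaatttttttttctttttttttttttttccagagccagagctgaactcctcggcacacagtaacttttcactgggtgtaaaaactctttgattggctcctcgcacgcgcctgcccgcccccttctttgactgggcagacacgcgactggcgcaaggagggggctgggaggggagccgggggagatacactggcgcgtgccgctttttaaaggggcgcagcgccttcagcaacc
The Fcgbp window held 3 such E-boxes, the Muc2 window 1, and the Agr2, Spdef and Atoh1 windows 0. Of 27025 mouse promoter windows of the same length, 44.5% held at least 1. The motif CCNCNCCC on either strand, the kind of GC-rich site that Klf4 and its relatives bind, was present 2 times in the Atoh1 window, 1 time each in those of Muc2, Fcgbp and Agr2, and 0 times in that of Spdef, and 45.6% of all windows held it. The motifs were searched separately, and their matches may share letters. These matches describe the printed letters and nothing about binding in these cells.

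All 9 genes had counts in every library, the lowest being 13 for Tff3, and all 9 passed the filter on low counts. Library totals were 7127769 to 8589351 in the 10 feeding-group libraries and 4851239 to 5202146 in con. The con libraries differed from all others in much more than goblet cell genes, and the labels name no batch, so for con a batch effect and the group cannot be told apart. The selected antigen gene Epcam averaged 335 CPM (read counts scaled to library size) under BSF, 351 under BSF_C, 322 under LSF and 375 under DSF, against 193 in con. Ptprc, which encodes the excluded CD45, was at 13.8, 16, 18.7 and 17.8 CPM in the same feeding groups, against 0.139 CPM in con. Itgam, which encodes the excluded CD11b, went the other way, at 7.39, 7.23, 5.81 and 7.92 CPM in these groups, against 12.1 CPM in con, and was called lower in all 4. Summed over 8 enterocyte markers, libraries ranged from 25600 to 25650 CPM under BSF, 24910 to 26970 under BSF_C, 29430 to 30090 under LSF and 19180 to 19550 under DSF, against 3063 to 3538 in con, and no marker was at 0 in any group. In every group most of the enterocyte sum was Apoa4 (14030, 14160, 14220 and 9381 CPM, against 979 in con) and Apoa1 (6736, 6998, 9111 and 5392 CPM, against 950 in con). For 7 Paneth markers the library ranges were 1692 to 1716, 1763 to 1810, 1305 to 1389 and 1491 to 1549 CPM, against 312 to 364 in con, where Pnliprp2 was at 0. For 6 stem and transit-amplifying markers they were 2276 to 2376, 2207 to 2253, 1655 to 1661 and 2154 to 2207 CPM, against 3197 to 3426 in con, with none at 0. Olfm4 carried most of this sum, at 1789, 1730, 1302 and 1724 CPM, against 2815 CPM in con. Lgr5 (18.9, 14.6, 19.1 and 15.1 CPM, against 29.1 CPM in con) and Smoc2 (81.5, 74.7, 55.6 and 74.7 CPM, against 164 CPM in con) were also highest in con. The others did not follow: Ascl2 averaged 23.4, 23.9, 19.4 and 18.55 CPM, against 5.49 CPM in con, and Top2a 85.4, 79.7, 49.4 and 69.75 CPM, against 26.55 CPM in con. Mki67 lay on both sides of con, at 328, 306, 214 and 278 CPM, against 309 CPM in con. Enteroendocrine markers (8 genes) summed to 433 to 452, 462 to 483, 381 to 392 and 392 to 398 CPM, against 452 to 461 CPM in con. For 8 tuft cell markers the sums were 82.9 to 84.0, 78.6 to 93.5, 61.4 to 62.2 and 66.4 to 77.4 CPM. In con they were 72.7 to 81.3 CPM, and Il25 was at 0 in BSF, LSF and con. These sums were mostly Chgb (272, 285, 224 and 225 CPM, against 340 CPM in con) and Trpm5 (50.8, 54.5, 41.9 and 48.7 CPM, against 63.55 CPM in con). Some other markers were lower in con, among them Sct (32.65, 39.8, 33.1 and 38.8 CPM, against 12.3 CPM in con), Cck (14.9, 15.4, 12.1 and 15.25 CPM, against 6.73 CPM in con) and Dclk1 (20.25, 19.55, 12.15 and 14.15 CPM, against 4.84 CPM in con). Neurod1 (8.26, 7.55, 8.35 and 7.08 CPM, against 8.87 CPM in con) and Avil (3.41, 3.33, 3.29 and 2.23 CPM, against 4.55 CPM in con) had their highest mean in con, with overlapping libraries. Neurog3, Gcg and Pou2f3 had feeding group means on both sides of con. Skin keratinocyte markers (8 genes) summed to at most 6.20 CPM in any feeding library, with Calm4 and Krtdap at 0 in all 4 feeding groups, and to 447 to 540 CPM in con. Of 8 leukocyte markers, the sum was 66.5 to 73.2 CPM under BSF, 70.5 to 80.5 under BSF_C, 109.5 to 111 under LSF and 106 to 108 under DSF, against 13.1 to 15.6 in con, where Cd3g was at 0, and most of the con sum was Itgam. Heart muscle markers (7 genes) summed to 186 to 202, 184.5 to 202, 324 to 360 and 359 to 361 CPM, against 120 to 133 in con, where Myh6, Actc1 and Nppa were at 0. Ldb3 averaged 107, 105, 99.85 and 112 CPM, against 117 CPM in con, where it made up most of the sum. Myh6 averaged 56.4, 60.35, 180 and 179 CPM in the feeding groups. Gastric surface mucous markers, a further possible source of mucin and trefoil transcripts, summed to 1.38 CPM at most in any library, and Gkn1, Gkn2 and Tff2 were at 0 in every group. The part of these other cell types in the results against con was not tested.

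Among the goblet cell genes themselves, levels spanned a wide range. Per kilobase of annotated exon, over all 13 libraries, Zg16 (573 CPM per kb) and Fcgbp (501) stood far above Spink4 (49.2), Muc2 (44.1), Clca1 (42.1), Agr2 (29.4), Atoh1 (18.02), Tff3 (10.8) and Spdef (6.28). The order of the leading pair depended on the group: Zg16 and Fcgbp were at 587 and 424 CPM per kb under BSF, 652 and 420 under BSF_C, 819 and 513 under LSF, and 554 and 379 under DSF, against 252 and 704 in con. In plain counts Fcgbp made up most of the total, with 76.7% of the summed CPM of the 9 genes under BSF, 75.2% under BSF_C, 76.4% under LSF and 75.4% under DSF, against 90.2% in con. The 9 genes summed to 5711 to 5898 CPM under BSF, 5751 to 6077 under BSF_C, 6994 to 7169 under LSF and 5130 to 5419 under DSF, against 7680 to 8973 in con, although 6 of the 9 had their lowest group mean in con. A summed score would therefore read mainly Fcgbp, and the genes are described singly.

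**Figure D1:**
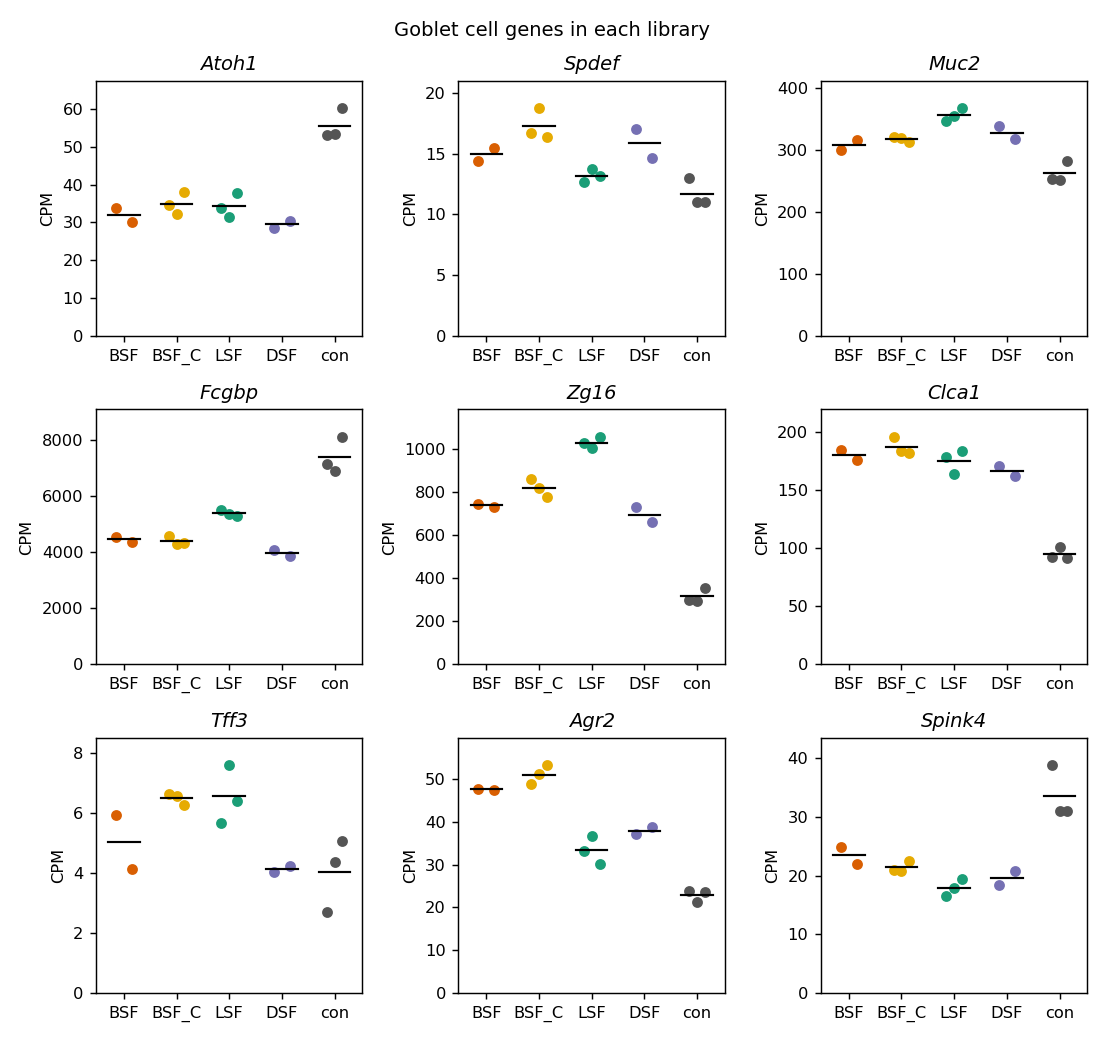
Level of each of the 9 goblet cell genes (y axis, CPM, starting at 0) in each of the 13 libraries, by group along the x axis; points are libraries and bars are group means. Fcgbp, Atoh1 and Spink4 are highest in con, Zg16 and Clca1 lowest in con, and Zg16 is highest in the 3 LSF libraries (1005 to 1057 CPM).

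Each feeding group was compared with con to ask how its levels differed from the control. As the feeding times of con and BSF_C are not given, how these groups differed in meals is not known. These 4 comparisons share the same con libraries, so their values are set side by side and are not independent. Against con, Zg16, Clca1, Agr2 and Muc2 were higher and Fcgbp, Atoh1 and Spink4 lower in each of the 4 feeding groups, while Spdef and Tff3 passed the test in some groups only. By the quasi-likelihood test of edgeR, with p-values adjusted after Benjamini and Hochberg over all 14300 genes tested, 4 of the 9 genes rose and 3 fell under BSF, 6 and 3 under BSF_C, 5 and 3 under LSF, and 5 and 3 under DSF. Such calls were common across the table, at 70.2% of all genes tested for BSF, 73% for BSF_C, 72% for LSF and 67.7% for DSF. By direction, 38.3% of all genes tested were called higher and 31.9% lower under BSF, 39.8% and 33.2% under BSF_C, 38.9% and 33% under LSF, and 36.6% and 31.1% under DSF. With 7, 9, 8 and 8 of 9 called, the members' share was not far from that background. The libraries of the feeding group and of con did not overlap in 8, 9, 8 and 8 of the 9 genes, beside 75.7%, 72.5%, 72.1% and 74% of all genes. The median log2 fold change of the 9 genes was 0.31 under BSF, 0.56 under BSF_C, 0.44 under LSF and 0.32 under DSF, beside 0.11, 0.12, 0.10 and 0.10 for all genes tested. In sorted bulk RNA a lower level can mean fewer goblet cells or less RNA per cell, and these cannot be told apart.

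Of the lineage regulators, Atoh1 fell in all 4 feeding groups, while Spdef rose in BSF_C and DSF. Atoh1 (chromosome 6, 64729125 to 64731245 in GRCm38) was at 33.8 and 30.0 CPM under BSF, 34.6, 32.2 and 38.0 under BSF_C, 33.8, 31.4 and 37.9 under LSF, and 28.6 and 30.4 under DSF, against 53.1, 53.2 and 60.1 in con. Every con library was above every feeding library, and the ranges of neighbouring feeding groups overlapped. Atoh1 fell by 0.80 ± 0.11 on the log2 scale under BSF (SE; adjusted p = 3.42e-09, quasi-likelihood test of edgeR), 0.67 ± 0.09 under BSF_C (1.47e-08), 0.69 ± 0.10 under LSF (7.05e-09) and 0.91 ± 0.11 under DSF (2.11e-10). Spdef (chromosome 17, 27714352 to 27728955) was at 14.4 and 15.5 CPM under BSF, 16.7, 18.7 and 16.4 under BSF_C, 12.7, 13.8 and 13.2 under LSF, and 17.04 and 14.65 under DSF, against 13.01, 11.02 and 11.06 in con. The LSF and con ranges overlapped, and the others lay above con. Spdef rose by 0.56 ± 0.15 in BSF_C (adjusted p = 7.42e-04) and by 0.44 ± 0.17 in DSF (0.0183). It was at 0.35 ± 0.17 in BSF (0.0527) and 0.17 ± 0.16 in LSF (0.326), neither of which passed. The call in DSF was lost without con replicate 2 (0.39, adjusted p = 0.0562) or without the DSF library marked S2 (0.31, adjusted p = 0.187), and BSF passed without con replicate 1 (0.44, adjusted p = 0.0338) or with library totals as the only scaling (0.53, adjusted p = 0.00403).

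Of the structural proteins of mucus, Zg16, a lectin-like protein that binds Gram-positive bacteria (chromosome 7, 127050156 to 127087328), had the largest log2 fold changes over con. Zg16 was at 743.5 and 733 CPM under BSF, 861, 820 and 780 under BSF_C, 1027, 1005 and 1057 under LSF, and 731 and 661 under DSF, against 299, 296 and 357 in con. Every feeding library was above every con library, and the groups did not overlap at any step of their order. Zg16 rose by 1.22 ± 0.06 under BSF (log2, SE; adjusted p = 1.77e-24, quasi-likelihood test of edgeR), 1.37 ± 0.06 under BSF_C (1.71e-28), 1.70 ± 0.06 under LSF (7.42e-33) and 1.14 ± 0.06 under DSF (4.90e-23). Clca1, a metalloprotease abundant in the mucus layer (chromosome 3, 145003817 to 145032776), was at 185 and 176 CPM under BSF, 196, 184 and 182 under BSF_C, 178, 164 and 184 under LSF, and 170 and 162 under DSF, against 92.7, 101 and 91.45 in con. The feeding groups overlapped each other in their order and lay above con. Clca1 rose by 0.92 ± 0.07, 0.98 ± 0.06, 0.88 ± 0.07 and 0.80 ± 0.07 in BSF, BSF_C, LSF and DSF, with adjusted p-values of 5.54e-17, 1.34e-19, 9.38e-18 and 1.34e-14.

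Muc2, the mucin that forms the gel itself (chromosome 7, 141690340 to 141754693), was at 301 and 317 CPM under BSF, 321, 319 and 313 under BSF_C, 346.5, 355 and 368 under LSF, and 339 and 318 under DSF, against 254, 252 and 283 in con. The con libraries were the lowest 3 and the LSF libraries the highest 3. Muc2 rose by 0.23 ± 0.06 under BSF (adjusted p = 7.42e-04, quasi-likelihood test of edgeR), 0.27 ± 0.06 under BSF_C (1.91e-05), 0.44 ± 0.05 under LSF (4.84e-10) and 0.32 ± 0.06 under DSF (8.16e-06). A small shift of all genes is contained in these differences: relative to the median gene they were 0.12, 0.15, 0.34 and 0.22, and with library totals as the only scaling, which moved the median from 0.11 to 0.29 in BSF, the Muc2 value in BSF became 0.41, again 0.12 above the median. Set against Epcam in the same library the direction was the other way, with 0.922 ± 0.055 Muc2 counts per Epcam count under BSF, 0.906 ± 0.041 under BSF_C, 1.11 ± 0.01 under LSF and 0.875 ± 0.009 under DSF, against 1.37 ± 0.17 in con (SD, n = 2, 3, 3, 2 and 3). Fcgbp, a large mucus protein with repeated von Willebrand domains that binds Muc2 (chromosome 7, 28071236 to 28120862), was at 4542 and 4365 CPM under BSF, 4571, 4301 and 4341 under BSF_C, 5515, 5365 and 5278 under LSF, and 4074 and 3881 under DSF, against 7133, 6910 and 8112 in con. All con libraries were above all feeding libraries, and LSF lay between con and the rest. Fcgbp fell by 0.73 ± 0.05, 0.75 ± 0.05, 0.46 ± 0.04 and 0.89 ± 0.05 in BSF, BSF_C, LSF and DSF, with adjusted p-values of 1.60e-18, 2.84e-21, 3.06e-13 and 6.43e-22.

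Agr2, the protein disulfide isomerase relative needed in mice for Muc2 production (chromosome 12, 35992907 to 36004087), was at 47.7 and 47.6 CPM under BSF, 48.9, 51.2 and 53.3 under BSF_C, 33.3, 36.6 and 30.2 under LSF, and 37.1 and 38.8 under DSF, against 23.7, 21.2 and 23.5 in con. The 5 groups did not overlap at any step of their order, from BSF_C at the top through BSF, DSF and LSF to con. Agr2 rose by 1.06 ± 0.11 under BSF (adjusted p = 3.00e-12, quasi-likelihood test of edgeR), 1.16 ± 0.10 under BSF_C (5.72e-15), 0.55 ± 0.11 under LSF (1.23e-05) and 0.73 ± 0.12 under DSF (2.15e-07). Tff3, the small trefoil peptide of goblet cells (chromosome 17, 31125306 to 31129646), was scarce, at 5.92 and 4.12 CPM under BSF, 6.63, 6.555 and 6.24 under BSF_C, 5.67, 7.58 and 6.38 under LSF, and 4.03 and 4.22 under DSF, against 2.68, 4.37 and 5.07 in con. These levels rest on 13 to 59 counts a library, and the BSF and DSF ranges overlapped con. Tff3 rose by 0.69 ± 0.25 under BSF_C (0.0113) and 0.70 ± 0.25 under LSF (0.0104), and was at 0.31 ± 0.28 under BSF (0.334) and 0.04 ± 0.30 under DSF (0.904). Without con replicate 1 neither rise passed (0.46 in BSF_C, adjusted p = 0.118, and 0.47 in LSF, adjusted p = 0.111), the DSF value turned to -0.19 (adjusted p = 0.601), and without LSF replicate 2 the LSF rise did not pass (0.58, adjusted p = 0.0562). Spink4, a Kazal-type protease inhibitor of secretory cells (chromosome 4, 40920052 to 40931395), was at 24.9 and 22.1 CPM under BSF, 21.0, 20.7 and 22.5 under BSF_C, 16.5, 17.9 and 19.4 under LSF, and 18.5 and 20.85 under DSF, against 38.8, 31.0 and 31.1 in con. Spink4 was highest in the con libraries and fell by 0.53 ± 0.13 under BSF (2.62e-04), 0.65 ± 0.12 under BSF_C (1.68e-06), 0.91 ± 0.12 under LSF (1.66e-09) and 0.78 ± 0.13 under DSF (8.96e-07).

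**Figure D2:**
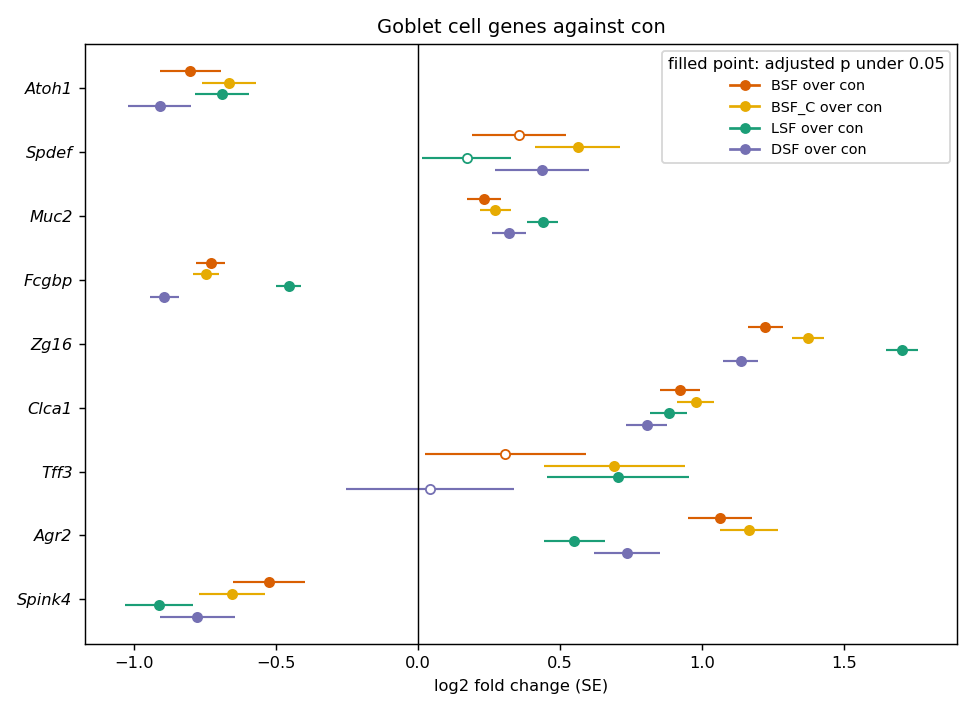
Log2 fold change of each goblet cell gene (rows) in BSF, BSF_C, LSF and DSF over con (x axis; points are estimates, bars 1 SE on each side), with filled points where the adjusted p was under 0.05. Zg16, Clca1, Agr2 and Muc2 lie to the right of 0 and Atoh1, Fcgbp and Spink4 to the left in all 4 comparisons, which share the con libraries.

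Ratios of counts within a library do not depend on how libraries are scaled, and they show how the balance among goblet cell genes differed. Each Atoh1 count was accompanied by 9.73 ± 1.18 Muc2 counts under BSF, 9.14 ± 0.84 under BSF_C, 10.4 ± 0.8 under LSF and 11.2 ± 1.0 under DSF, against 4.75 ± 0.04 in con (SD, n = 2, 3, 3, 2 and 3). The lowest feeding library had a ratio of 8.23 and the highest con library 4.79, so this balance did not overlap between con and the rest. Fcgbp gave 14.4 ± 0.9, 13.9 ± 0.4, 15.1 ± 0.8 and 12.1 ± 0.1 counts per Muc2 count in BSF, BSF_C, LSF and DSF, against 28.0 ± 0.6 in con. Zg16 gave 2.39 ± 0.11, 2.58 ± 0.09, 2.89 ± 0.07 and 2.12 ± 0.06 counts per Muc2 count in the feeding groups, against 1.202 ± 0.05 in con. For Agr2 per Muc2 count, LSF (0.0938 ± 0.0107) overlapped con (0.0868 ± 0.0057), while BSF (0.154 ± 0.006), BSF_C (0.161 ± 0.009) and DSF (0.116 ± 0.009) lay above both. No test was made of these ratios.

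**Figure D3:**
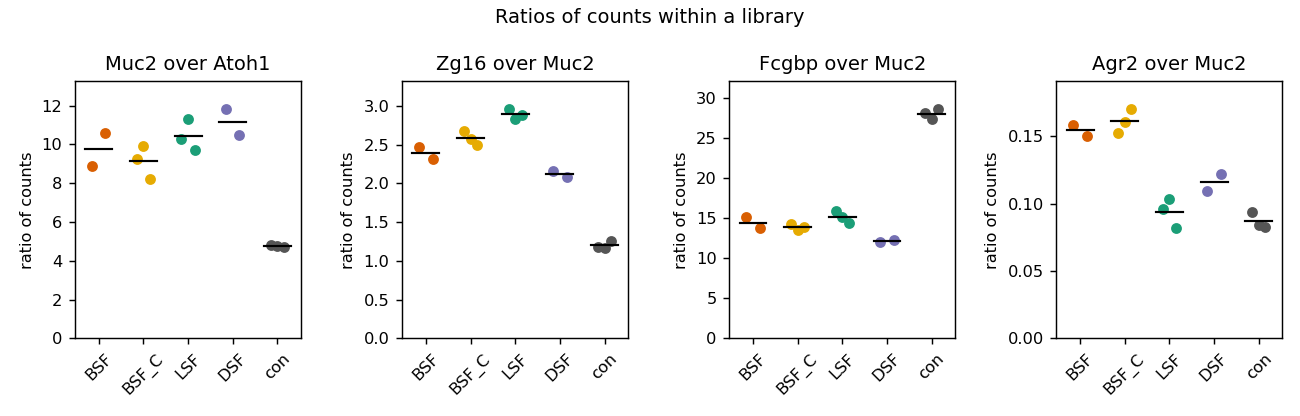
Ratio of raw counts of a pair of goblet cell genes within each library (y axis, starting at 0), by group along the x axis; points are libraries and bars are group means. Muc2 over Atoh1 lies between 4.71 and 4.79 in con and at 8.23 or more in all feeding libraries, and Agr2 over Muc2 is highest in BSF and BSF_C.

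The comparison of BSF with LSF asks how breakfast skipping differed from lunch skipping. The con libraries enter it only through the shared filter on low counts, the scaling and the estimate of spread. BSF had more Agr2 and Spink4 and less Zg16, Fcgbp and Muc2 than LSF. Of the 9 genes, 2 were called higher and 3 lower, beside 13.4% and 15.9% of all genes tested, or 29.3% in all, and the members' median log2 fold change was -0.11, beside 0.01 for all genes. Agr2 averaged 47.6 CPM in BSF and 33.4 in LSF, a log2 fold change of 0.51 ± 0.10 (adjusted p = 3.70e-05, quasi-likelihood test of edgeR), with both BSF libraries above all 3 LSF libraries. In 6 of the 9 genes the BSF and LSF libraries did not overlap, beside 55.9% of all genes. Zg16 averaged 738 CPM in BSF and 1030 in LSF and was lower in BSF by 0.48 ± 0.06 (log2; 5.71e-09). Fcgbp averaged 4454 CPM in BSF and 5386 in LSF, a difference of -0.27 ± 0.05 (2.49e-05). Muc2 averaged 309 and 356 CPM, at -0.21 ± 0.06 (0.00591), and was not called without BSF replicate 1 (-0.17, adjusted p = 0.116). Spink4 averaged 23.5 and 17.9 CPM, at 0.39 ± 0.13 (0.0184), and was not called without BSF replicate 1 (0.30, adjusted p = 0.200), without LSF replicate 1 (0.33, adjusted p = 0.0869) or by the Wald test of DESeq2 (0.38, adjusted p = 0.0507). The count of calls was 3 without BSF replicate 1, where 1 BSF library is assumed to vary like the other groups. Marker sums differed beside these genes. The stem and transit-amplifying sum averaged 2326 CPM in BSF and 1659 in LSF, the Paneth sum 1704 and 1346, and the enterocyte sum 25620 and 29790. The enteroendocrine sum averaged 443 CPM in BSF and 386 in LSF, and the tuft cell sum 83.45 and 61.9. The leukocyte sum averaged 69.9 and 110.4 CPM and the heart muscle sum 194 and 348. The part of all these cell types in the result was not tested. Between BSF and LSF, Clca1 (0.04 ± 0.06), Atoh1 (-0.11 ± 0.11), Spdef (0.18 ± 0.15) and Tff3 (-0.40 ± 0.24) did not pass.

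LSF against DSF asks the same of lunch and dinner skipping. Zg16 averaged 1030 CPM in LSF and 696 in DSF, 0.57 ± 0.06 higher in LSF on the log2 scale (adjusted p = 6.80e-11, quasi-likelihood test of edgeR), and Fcgbp averaged 5386 and 3977 CPM, 0.44 ± 0.05 higher in LSF (8.93e-10). In both genes all 3 LSF libraries were above both DSF libraries. These 2 of 9 were the genes called higher, beside 8.97% of all genes tested, and 0 were called lower, beside 6.91%, or 15.9% in all. The LSF and DSF libraries did not overlap in 7 of the 9, beside 45% of all genes. The members' median was 0.12, beside 0.00 for all genes. Tff3 was at 0.66 ± 0.25 (0.0624) and Muc2 at 0.12 ± 0.06 (0.183), and both passed when the con libraries were left out of the fit (0.0343 for Tff3 and 0.0358 for Muc2) or when the fit held LSF and DSF alone (0.0358 and 0.0152), which brought the count to 4. With LSF over DSF, Agr2 was at -0.18 ± 0.10 (0.242) and Spdef at -0.27 ± 0.15 (0.257), while Spink4, Clca1 and Atoh1 had adjusted p-values of 0.584, 0.505 and 0.187. The enterocyte sum averaged 29790 CPM in LSF and 19360 in DSF, and the stem and transit-amplifying sum 1659 and 2180, whose part was not tested.

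BSF against DSF sets breakfast skipping beside dinner skipping. Agr2 averaged 47.6 CPM in BSF and 37.9 in DSF, 0.33 ± 0.11 higher in BSF (log2; adjusted p = 0.0311, quasi-likelihood test of edgeR), and Fcgbp 4454 and 3977 CPM, 0.16 ± 0.05 higher in BSF (0.0407). These were 2 of 9 called higher, beside 5.77% of all genes, with 0 called lower, beside 6.26%, or 12% in all. The BSF and DSF libraries did not overlap in 6 of the 9, beside 55.9% of all genes. The members' median was 0.12, beside 0.00 for all genes. The count was 0 when any BSF or DSF library was left out, which leaves 1 library in that group, assumed to vary like the other groups. The log2 fold changes were then 0.30 to 0.36 for Agr2 (adjusted p = 0.101 to 0.217) and 0.13 to 0.20 for Fcgbp (adjusted p = 0.0825 to 0.316). The count was 1 with the size factors of DESeq2, which left Agr2 called, and 0 with its Wald test. The remaining 7 genes had log2 fold changes of -0.09 to 0.26. The enterocyte sum averaged 25620 CPM in BSF and 19360 in DSF, mostly from Apoa4 (14030 and 9381 CPM) and Apoa1 (6736 and 5392 CPM). Of its other markers, Lct averaged 1523 and 1325 CPM, Alpi 1864 and 1822, and Sis 436 and 423. Vil1 went the other way, at 798 CPM in BSF and 833 in DSF. The leukocyte sum averaged 69.9 and 107.1 CPM and the heart muscle sum 194 and 360 CPM. The part of these cell types in the differences between BSF and DSF was not tested.

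BSF_C against BSF sets the combined pattern beside breakfast skipping alone. No goblet cell gene was called by the quasi-likelihood test of edgeR, beside 0.133% of all genes tested (0.105% higher and 0.028% lower), and each of the 9 had an adjusted p of 1. DESeq2's Wald test and limma-voom also called 0 of the 9, and by each of the 3 tools 1 of the 9 had an unadjusted p under 0.05. In edgeR that gene was Zg16, at 861, 820 and 780 CPM in BSF_C and 743.5 and 733 in BSF, a log2 fold change of 0.15 with a 95% interval of 0.01 to 0.29. The interval was -0.10 to 0.18 for Muc2, -0.13 to 0.10 for Fcgbp, -0.09 to 0.20 for Clca1, -0.11 to 0.31 for Agr2, -0.11 to 0.38 for Atoh1, -0.42 to 0.16 for Spink4, -0.12 to 0.54 for Spdef and -0.16 to 0.93 for Tff3. The data thus leave room for differences within these bounds, and the scarce Tff3 is the least well bounded. The BSF_C and BSF libraries did not overlap in 4 of the 9 genes, beside 21.5% of all genes. By edgeR, 573 of 14300 genes had an unadjusted p under 0.05, against 275 by DESeq2 and 620 by limma-voom.

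**Figure D4:**
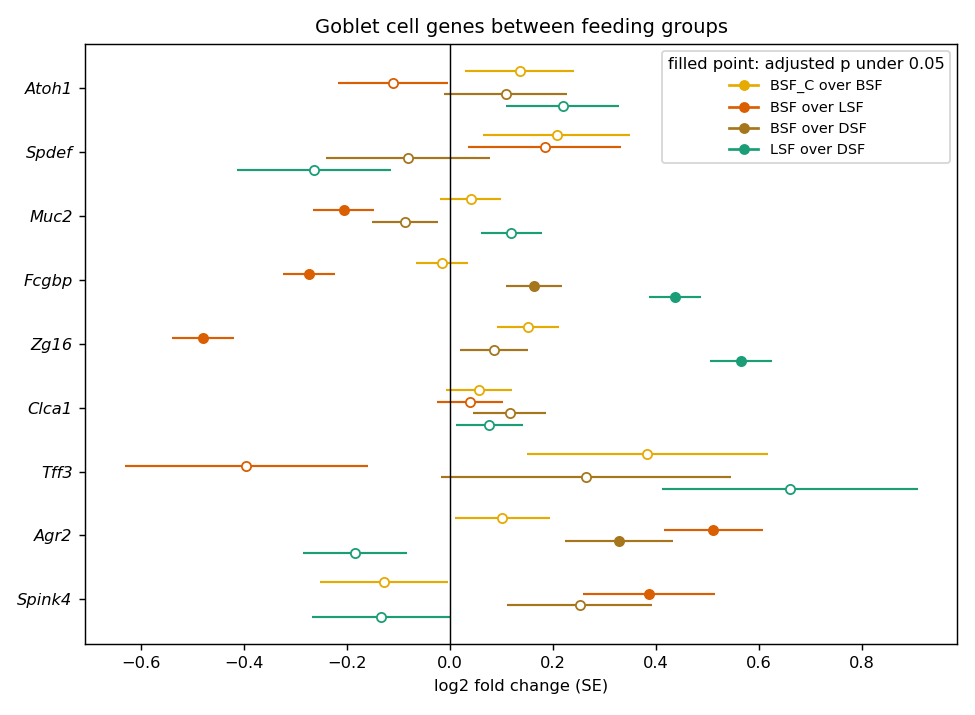
Log2 fold change of each goblet cell gene (rows) for BSF_C over BSF, BSF over LSF, BSF over DSF and LSF over DSF (x axis; points are estimates, bars 1 SE on each side), with filled points where the adjusted p was under 0.05. Zg16 and Fcgbp lie on the LSF side in both comparisons with LSF, Agr2 lies on the BSF side in both comparisons of BSF with another pattern, and no gene is called for BSF_C over BSF.

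Other genes of mucus biology were read from 5 lists. Of 12 transmembrane and other gel-forming mucins, 10 were in the table and 6 were tested. Muc5ac, Muc5b, Muc6 and Muc16 did not pass the filter. Against con, 1 rose and 4 fell under BSF, 2 and 3 under BSF_C, 1 and 4 under LSF, and 2 and 4 under DSF, with median log2 fold changes of -1.36, -0.99, -0.68 and -1.03 (all genes tested: 0.11, 0.12, 0.10 and 0.10). Of all genes tested, 38.3% were called higher and 31.9% lower in BSF, 39.8% and 33.2% for BSF_C, 38.9% and 33% for LSF, and 36.6% and 31.1% for DSF. Muc4, a membrane-bound mucin, averaged 110 CPM under BSF, 110 under BSF_C, 65.5 under LSF and 120 under DSF, against 460 in con, and fell by 2.06, 2.07, 2.81 and 1.94 on the log2 scale. Muc3, a mucin of the brush border membrane, averaged 140, 130, 290 and 198 CPM in the same feeding groups, against 377 in con. Between BSF and LSF the pair moved in opposite directions, Muc3 by -1.05 (adjusted p = 5.56e-20, quasi-likelihood test of edgeR) and Muc4 by 0.75 (5.70e-12). Muc3a, whose reads may be split with the related Muc3, averaged 24.9, 22.5, 34.5 and 27.7 CPM under BSF, BSF_C, LSF and DSF, against 61.1 in con. Muc20, a small membrane mucin, averaged 12.7 CPM in BSF and 7.26 in LSF (0.80, 3.37e-04), and was lower in LSF than in DSF, where it averaged 15.3 CPM (-1.07, 3.23e-06). Muc13, an abundant membrane mucin of the intestine, averaged 1465 CPM in BSF and 1296 in DSF (0.18, 0.0228). In this list 3 genes were called higher and 2 lower in BSF than in LSF, 1 and 1 in BSF against DSF, 2 and 2 in LSF against DSF, and 0 in BSF_C against BSF, where 0 genes of the other 4 lists were called either. The shares of all genes called higher and lower were 13.4% and 15.9% in BSF against LSF, 5.77% and 6.26% in BSF against DSF, 8.97% and 6.91% in LSF against DSF, and 0.105% and 0.028% in BSF_C against BSF.

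Of 28 tested genes for mucin O-glycosylation, fucosylation and sulfation, 9 rose and 15 fell under BSF against con, 9 and 16 under BSF_C, 10 and 14 under LSF, and 8 and 14 under DSF. Their median log2 fold changes were -0.26, -0.39, -0.22 and -0.28. Beside these stand 38.3% higher and 31.9% lower of all genes for BSF, 39.8% and 33.2% for BSF_C, 38.9% and 33% for LSF, and 36.6% and 31.1% for DSF. Chst4, a sulfotransferase acting on mucin sugars, averaged 53.9 CPM under BSF, 58.1 under BSF_C, 60.3 under LSF and 48.9 under DSF, against 177 in con. Gcnt3, which branches mucin sugar chains, averaged 46.4 CPM under BSF, 45.3 under BSF_C, 49.5 under LSF and 39.2 under DSF, against 130 in con. Gal3st2, which sulfates galactose, averaged 157 CPM in BSF and 301 in LSF, lower in BSF by 0.94 (adjusted p = 1.04e-16, quasi-likelihood test of edgeR). B3gnt6, the core 3 synthase of intestinal mucin glycans, averaged 1.91 CPM in BSF and 6.09 in LSF (-1.67, 2.77e-05). Slc35c1, the Golgi carrier of GDP-fucose, averaged 320, 323, 268 and 305 CPM under BSF, BSF_C, LSF and DSF, against 594 in con. Galnt4, which starts O-glycan chains, averaged 237 CPM in BSF, against 191 in LSF (0.31, 6.78e-05) and 203 in DSF (0.22, 0.0219). B4galnt2, which adds a terminal sugar to intestinal glycans, was lower in BSF than in DSF (139.8 and 167 CPM, -0.25, 0.0141) and lower in LSF than in DSF (140.3 and 167 CPM, -0.25, 0.00512), as was the UDP-galactose carrier Slc35a2 in LSF against DSF (65.7 and 82.1 CPM, -0.32, 0.00727). Of this list 8 genes were called higher and 2 lower in BSF than in LSF (all genes: 13.4% and 15.9%), 1 and 2 in BSF against DSF (5.77% and 6.26%), and 4 and 3 in LSF against DSF (8.97% and 6.91%).

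Among 21 regulators of the secretory lineage and of type 2 cytokine signalling, 3 rose and 13 fell under BSF against con, 4 and 13 under BSF_C, 2 and 14 under LSF, and 3 and 12 under DSF, with medians of -0.41, -0.51, -0.58 and -0.45. The share of all genes called lower was 31.9%, 33.2%, 33% and 31.1%, and that called higher 38.3%, 39.8%, 38.9% and 36.6%. Elf3, an epithelial ETS factor, averaged 362 CPM under BSF, 376 under BSF_C, 341 under LSF and 431 under DSF, against 680 in con. Notch1, the receptor whose signal keeps Atoh1 off, fell by 1.15, 1.08, 1.197 and 1.13 on the log2 scale in BSF, BSF_C, LSF and DSF, and Notch2 by 1.39, 1.46, 1.51 and 1.28. Il4ra, a receptor chain for the goblet-inducing cytokines IL-4 and IL-13, averaged 74.1 CPM under BSF, 75.5 under BSF_C, 87.7 under LSF and 83.9 under DSF, against 165 in con. Klf4, a factor of goblet cell maturation in the mouse colon, rose in all 4 feeding groups, at 117 CPM under BSF, 117 under BSF_C, 176 under LSF and 119 under DSF, against 82.6 in con, with a log2 fold change of 1.09 under LSF (adjusted p = 1.53e-21, quasi-likelihood test of edgeR). It was lower in BSF than in LSF by 0.59 (2.93e-10) and higher in LSF than in DSF by 0.56 (1.23e-09). Il13ra1, a further receptor chain for IL-13, averaged 146 CPM in BSF, against 118 in LSF (0.30, 3.37e-04) and 123 in DSF (0.24, 0.0194). Hes1, the Notch target that represses Atoh1, rose in all 4 feeding groups, at 68.0, 64.0, 52.5 and 61.5 CPM, against 41.1 CPM in con (log2 fold changes of 0.73, 0.64, 0.36 and 0.59), and was higher in BSF than in LSF (0.37, 6.87e-04). Dll1, a Notch ligand of secretory progenitors, averaged 74.8 CPM in BSF and 90.9 in DSF (-0.28, 0.0368), and Creb3l1, a membrane-bound factor of secretory cells, 17.3 CPM in LSF and 23.9 in DSF (-0.47, 0.00757). Of the regulators 4 were called higher and 2 lower in BSF than in LSF (all genes: 13.4% and 15.9%), 1 and 2 in BSF against DSF (5.77% and 6.26%), and 1 and 2 in LSF against DSF (8.97% and 6.91%).

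Of 15 tested genes for other secreted or surface products, 7 rose and 6 fell under BSF against con, 8 and 6 under BSF_C, 7 and 5 under LSF, and 7 and 5 under DSF, with medians of 0.06, 0.35, 0.06 and 0.23. In all, 70.2%, 73%, 72% and 67.7% of all genes were called in these comparisons. Itln1, an intelectin, averaged 139 CPM under BSF, 148 under BSF_C, 106 under LSF and 118 under DSF, against 15.7 in con. Itln1 and Ang4 of this list are also on the Paneth list, whose sum was higher in every feeding group than in con. Clca4b, a relative of Clca1, averaged 203, 190, 217 and 209 CPM under BSF, BSF_C, LSF and DSF, against 57.8 in con. Between BSF and LSF, 5 genes of this list were called higher and 0 lower, beside 13.4% and 15.9% of all genes, among them Dmbt1, a secreted scavenger receptor, at 1394 CPM in BSF and 1022 in LSF (0.45, adjusted p = 3.36e-10, quasi-likelihood test of edgeR), and Clca3b, at 171 and 125 CPM (0.45, 1.56e-07). Clca4a, a further relative of Clca1, averaged 26.4 CPM in BSF and 26.8 in BSF_C, against 0.576 in con, and 17.5 CPM in DSF (BSF over DSF 0.59, 0.00139). Lypd8, a secreted protein that keeps flagellated bacteria off the mouse colon, averaged 866 CPM in BSF and 1247 in DSF (-0.53, 6.87e-09), and 829 CPM in LSF (LSF over DSF -0.59, 4.16e-12). Its level in con was above all of these, at 1438 CPM. Tspan1, a tetraspanin, averaged 25.6 CPM in BSF and 35.7 in DSF (-0.48, 0.00377). Against DSF, 2 genes of this list were called higher and 3 lower in BSF (all genes: 5.77% and 6.26%), and 2 and 5 in LSF (8.97% and 6.91%).

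Of 20 tested genes for mucin folding, granule release and mucus handling, 7 rose and 8 fell under BSF against con, 6 and 7 under BSF_C, 8 and 8 under LSF, and 5 and 8 under DSF, with medians of 0.02, -0.07, -0.12 and -0.06. With 70.2%, 73%, 72% and 67.7% of all genes called, these counts were near the background. Mep1b, the protease meprin beta that cuts Muc2 and frees mucus in the mouse small intestine, averaged 226, 219, 246 and 223 CPM in the feeding groups in that order, against 78.4 in con. Nlrp6, an intracellular sensor tied to mucus release in mice, averaged 647, 653, 629 and 654 CPM, against 1409 in con. Pdia4, a disulfide isomerase of the endoplasmic reticulum as Agr2 is, was higher in BSF than in LSF, at 92.9 and 62.4 CPM (0.58, 1.06e-07, quasi-likelihood test of edgeR). Rab3d, a GTPase of secretory granules, averaged 71.9 CPM in BSF, 74.1 in BSF_C and 73.2 in DSF, against 160 in con. Mep1a, the partner of Mep1b, and Slc26a3, a chloride and bicarbonate exchanger, were highest in LSF among the feeding patterns compared: Mep1a averaged 28.1 CPM in BSF and 44.4 in LSF (-0.65, 2.96e-06) and 26.4 in DSF (LSF over DSF 0.75, 3.15e-07), and Slc26a3 averaged 48.3 CPM in BSF and 79.9 in LSF (-0.72, 5.23e-09) and 54.7 in DSF (LSF over DSF 0.55, 4.03e-06). Of this list 3 genes were called higher and 2 lower in BSF than in LSF (all genes: 13.4% and 15.9%), and 3 and 3 in LSF against DSF (8.97% and 6.91%).

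By the measure used here, which takes in the size of changes as well as their direction, the genes nearest to Muc2 were not goblet cell genes. Likeness was taken as the root mean square difference between group means of log2 CPM, each gene centred on its own mean over the 5 groups. It was ranked among 10494 genes that passed the filter on low counts and had a mean of at least 5 CPM, with unnamed gene models left out. The nearest were Rfk (0.0148), a riboflavin kinase, Mettl9 (0.0166), a methyltransferase, Rab5a (0.0263), a GTPase of early endosomes, Osbpl9 (0.0273), of the oxysterol-binding family, and Ehbp1l1 (0.029). Rfk averaged 557 CPM under BSF, 570 under BSF_C, 652 under LSF and 600 under DSF, against 469 in con. Of the other goblet cell genes, Spdef came nearest to Muc2, at place 2562 (0.183), followed by Tff3 at 4000 (0.235), Clca1 at 4489 (0.255) and Agr2 at 6751 (0.363). Fcgbp, Zg16, Atoh1 and Spink4 stood at 7670, 7978, 7995 and 8115, with differences of 0.421 to 0.454. These places do not separate a different course over the groups from a different size of change. Zg16 stood far from Muc2, although both were lowest in con (centred means of -1.09 and -0.25) and highest in LSF (0.62 and 0.19). Atoh1, at nearly the same place as Zg16, was highest in con (0.61), as were Fcgbp and Spink4.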

How the data were processed

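Counts per gene symbol were deposited by the authors as raw whole numbers for 21868 genes in 13 libraries of polyadenylated RNA. FastQC 0.11.8, cutadapt 2.9, STAR 2.7.2e, DESeq2 1.32.0 and the builds GRCm38 and mm10 stand, with no settings, per the submitters' processing notes. The annotation and strand setting are not given in the sources used here. Of the symbols, 99.2% matched GENCODE M21 (GRCm38), the source of positions and exon lengths. No exon of another annotated gene overlapped an exon of the 9 genes.

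The analysis used R 4.3.3 and edgeR 4.0.16: filterByExpr by group (14300 genes, 99.91% of counts), TMM scaling, and 1 quasi-likelihood fit by group over the 13 libraries, leaving 8 residual degrees of freedom. Tests were two-sided, with Benjamini-Hochberg adjustment over all genes tested and a threshold of 0.05. CPM uses TMM-scaled totals. The SE is the log2 fold change, without sign, over the square root of F. The 95% intervals use 8 degrees of freedom, fewer than the test, which shares information on spread between genes. They are therefore wider than the p-values imply. Spdef in BSF against con had an interval of -0.03 to 0.74 and an unadjusted p of 0.0372 by edgeR's quasi-likelihood test. Nothing says that libraries came from separate mice, so p-values reflect no more than the spread among them, which may be technical. The chi-square per degree of freedom between libraries of a group was 1.37 to 3.93, so none was taken as a repeat of another. DSF columns are headed S2 and S3, while the labels count from 1 to 2, so no replicate number was given to DSF. The procedure was tested on simulated data in which few genes changed, as many up as down, for BSF against con and BSF against LSF. That setting does not cover comparisons in which most genes were called, as against con.

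The members and gene lists were chosen with earlier results of these data known. Named besides the members were up to 3 called genes with the smallest p per list and comparison, plus Epcam and Ptprc; some of these are not reported here. Alternatives were DESeq2 size factors, library totals, limma-voom (limma 3.58.1), DESeq2's Wald test (1.42.0), no filter, only the groups compared, a block for the replicate number and each library left out. Leaving con out of the fit was added after seeing the data.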

Additional observations from a re-analysis of the deposited data

How the results depend on the processing

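For single goblet cell genes, under alternatives that left out no library of the groups compared, 504 values kept direction and side of the threshold, 4 lost and 5 gained a call, and 0 reversed. With a library left out, 346 kept both, 16 lost and 1 gained a call, and 6 reversed, all in differences not called to begin with. These ranged from -0.19 to 0.23 for Tff3 in DSF against con, -0.0461 to 0.012 for Fcgbp in BSF_C against BSF (0.0011 without BSF_C replicate 2), -0.0022 to 0.519 for Tff3 and -0.1884 to 0.0324 for Spdef in BSF against DSF, and -0.0068 to 0.0751 for Clca1 in BSF against LSF. The count of genes called in BSF against DSF, 2, became 1 with DESeq2 size factors and 0 with the DESeq2 Wald test, and in LSF against DSF, 2, became 4 with only these groups in the fit and 4 with con left out. With a library left out the counts ranged from 7 to 8 in BSF, 8 to 9 in BSF_C, 7 to 8 in LSF and 7 to 8 in DSF against con, 0 to 0 in BSF_C against BSF, 3 to 5 in BSF against LSF, 0 to 0 in BSF against DSF and 2 to 2 in LSF against DSF. Leaving out a BSF or DSF library leaves 1, assumed to vary like the other groups. The causes were not tested. Same-numbered libraries of different groups did not deviate together (r of -0.065 to 0.026 across genes over 15 pairs), and with the replicate block the counts were 7 in BSF, 9 in BSF_C and 8 in LSF against con, 0 in BSF_C against BSF and 5 in BSF against LSF, as without it. No paired analysis was possible for DSF because its columns carry no matching number.

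Over all genes, the 19 calls of BSF_C against BSF became 2 with the Wald test, 4 with limma-voom, 30 without the filter and 32 with only these groups, and the 1720 of BSF against DSF became 1109 with the Wald test. The share of calls that were higher in BSF against LSF was 45.8%, and 62.9% with library totals; for LSF against DSF it was 56.5% and 38%. Mucin folding and granule-release genes called in BSF against LSF numbered 5, and 9 with only these groups in the fit. Regulators called in LSF against DSF numbered 3, and 5 with library totals or with only these groups. Depth limits Tff3 most, at 13 to 59 counts a library.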
